A study of Arabidopsis thaliana with 5 samples.

Results

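AUR2 (AT2G25880), the gene of a mitotic Aurora kinase, and SIM (AT5G04470, SIAMESE), the gene of an inhibitor of cyclin-dependent kinases, were followed as signs of cell division and of the endocycle in clipped Arabidopsis thaliana plants. They were chosen by gene name, with earlier results of these data known. Each had 1 probe set, so that they make 2 of the 13356 genes named from probe sets with a single gene. RNA came from tissue labelled as secondary meristem and was hybridized to 5 Affymetrix arrays, 3 of ecotype Columbia and 2 of ecotype Landsberg erecta. All plants of both ecotypes were clipped when they bolted, to mimic browsing by mammals, and were sampled on the next day. Both ecotypes also shared 3 days of cold, a cycle of 16 h light and 8 h dark, and 3 inch pots. The labels name no transgene, Landsberg erecta carries the erecta mutation in its name, and unclipped plants were not analysed here. The comparison was therefore clipped Columbia against clipped Landsberg erecta, which the design text says differ in how they compensate for such damage. The age of the plants and the number of plants per array were not given in the sources used here.

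Dividing plant cells replicate their DNA, separate the copies in mitosis and build a cell plate between the daughter nuclei. Aurora kinases act in the mitotic part of this cycle, where they phosphorylate histone H3 and work at the spindle, the centromeres and the cell plate. SIM binds complexes of cyclins and cyclin-dependent kinases and blocks entry into mitosis, so that a cell goes on replicating its DNA without dividing, a cycle called the endocycle. In Arabidopsis leaves SIM is best known from trichomes, the leaf hairs, which become multicellular when it is lost. Transcripts of the inhibitor and of the kinase can be read side by side, but RNA levels measure neither division nor ploidy.

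The deposited values were on the log2 scale, with array medians from 5.44 to 5.50, and 24.4% to 25.2% of the probe sets of each array sat at a shared minimum of 2.15. Of the 14 listed markers of the tissue, CLV3, which encodes the stem cell peptide, and LAS, a regulator of axillary meristems, were the 2 measured. Here and below, measured means that a probe set was named for the gene, and 8794 probe sets were unnamed. Both genes sat at the shared minimum on all 5 arrays. The listed markers without a named probe set were not read, so these 2 genes do not tell whether the meristem label holds. Columbia replicate 3 stood apart from the other arrays for many of the genes below, and results that rest on it are given with and without it. Probe sets with equal values on 2 arrays were frequent, which can make a spread look smaller than it is.

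AUR2 was lowest on Columbia replicate 3 and varied little over the other arrays. Its log2 value was 7.94, 7.94 and 7.59 on Columbia replicates 1, 2 and 3, against 8.01 and 7.85 on Landsberg erecta replicates 1 and 2. The Landsberg erecta values lay on either side of those of Columbia replicates 1 and 2, so the ecotypes overlapped. The values of Columbia replicates 1 and 2 were identical in the deposited table, as they were for 1203 of the 12027 probe sets that varied and had a mean above 5. The Columbia mean of AUR2 was 7.82 ± 0.20 (SD, n = 3), against 7.93 ± 0.11 (SD, n = 2) for Landsberg erecta. The difference, Columbia minus Landsberg erecta, was -0.11 on the log2 scale with a 95% interval from -0.57 to 0.36 (limma fitted over 22746 probe sets, Benjamini-Hochberg adjusted p = 1). On the linear scale that is a ratio of 0.928 with an interval from 0.673 to 1.28, so a 2-fold difference lay outside it. Without Columbia replicate 3 the difference was 0.01.

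SIM varied more than AUR2, and its extremes were both Columbia arrays. Its log2 value was 8.05, 8.38 and 8.82 on Columbia replicates 1, 2 and 3, against 8.41 and 8.14 on Landsberg erecta replicates 1 and 2. Columbia replicate 1 was the lowest array and Columbia replicate 3 the highest, with both Landsberg erecta arrays between them. The step between these 2 Columbia arrays was 0.77, a 1.71-fold higher signal on replicate 3, while the Landsberg erecta arrays differed by 0.27. The Columbia mean of SIM was 8.42 ± 0.39 (SD, n = 3), against 8.28 ± 0.19 (SD, n = 2) for Landsberg erecta. They differed by 0.14, and the 95% interval ran from -0.72 to 1.01 (limma adjusted p = 1). The interval reached from a ratio of 0.605 to one of 2.01, so these arrays bound the ecotype difference of SIM less closely than that of AUR2. Without Columbia replicate 3 it was -0.06.

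**Figure D1:**
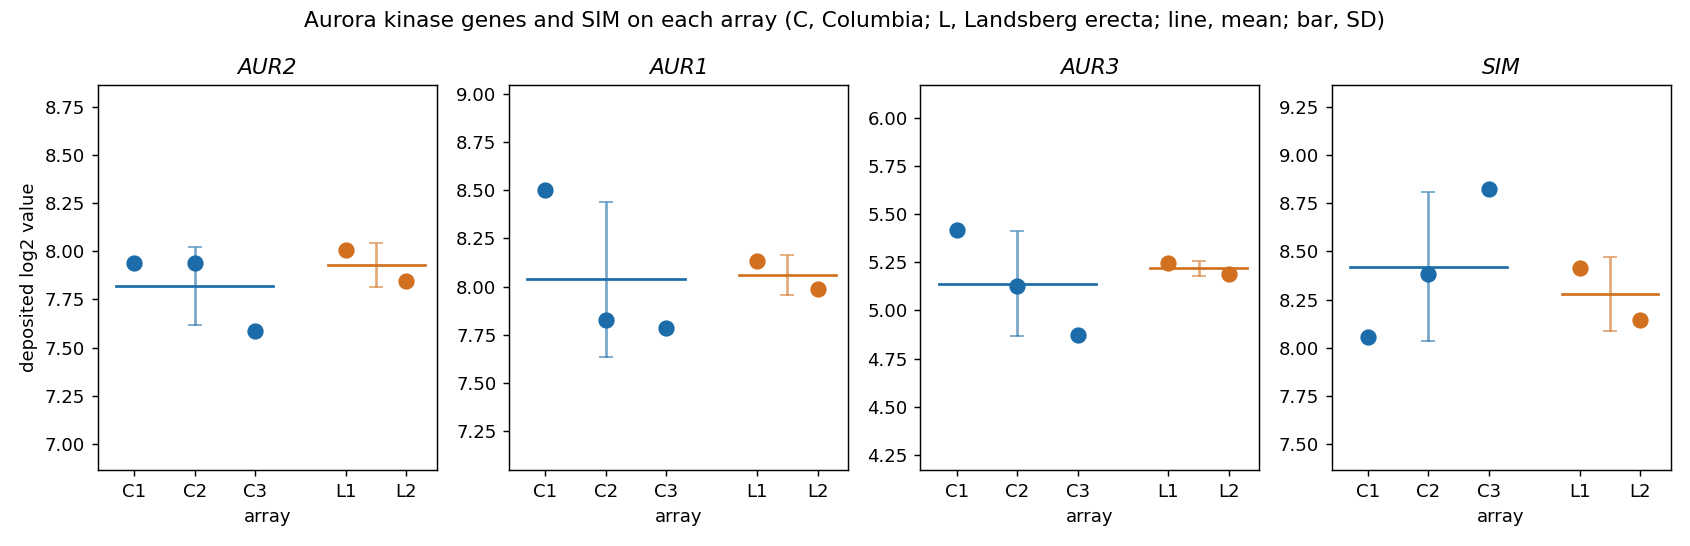
Deposited log2 values (vertical axes, each spanning 2 log2 units around the gene's mean) of AUR2, AUR1, AUR3 and SIM on each array; C1 to C3 are Columbia and L1 and L2 Landsberg erecta replicates, the line is the group mean and the bar its SD. The 3 Aurora kinase genes are lowest on Columbia replicate 3, where SIM is highest at 8.82.

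Neither of the 2 genes was called between the ecotypes, and neither separated them. Over all probe sets the adjusted limma test called 0 (0% of those tested) at a threshold of 0.05, and 406 (1.78%) had an unadjusted p under 0.05. The unadjusted p was 0.531 for AUR2 and 0.655 for SIM. Both ecotypes overlapped for AUR2 and for SIM, while 6.84% of all probe sets showed no overlap. Among the 12027 varying probe sets with a mean above 5, the absolute ecotype difference was smaller than that of AUR2 for 49.1% and smaller than that of SIM for 59.9%. The SD over the Columbia arrays was smaller than that of SIM for 90.0% of these probe sets and smaller than that of AUR2 for 70.2%. SIM thus belonged to the more variable probe sets within Columbia, with an ecotype difference near the middle of the distribution.

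The ratio of AUR2 to SIM puts both genes on a single scale for each array. Probe sets bind with different strength, so that the level of the ratio has no meaning of its own, and only its change between arrays can be read. The log2 ratio was -0.12, -0.44 and -1.24 on Columbia replicates 1, 2 and 3, against -0.41 and -0.30 on Landsberg erecta replicates 1 and 2. It was highest on Columbia replicate 1 and lowest on Columbia replicate 3, with the other 3 arrays between them. The ratio was 2.18-fold higher on Columbia replicate 1 than on Columbia replicate 3, and 1.08-fold higher on Landsberg erecta replicate 2 than on replicate 1. The range within Columbia, 1.12, was larger than any of the 6 differences between a Columbia and a Landsberg erecta array, which went from 0.04 to 0.94 in size.

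By ecotype, the mean log2 ratio of Columbia was -0.60 ± 0.58 (SD, n = 3), against -0.35 ± 0.08 (SD, n = 2) for Landsberg erecta. The difference of -0.25 was smaller than the SD within Columbia. An exact permutation test of the difference, over the 10 splits of the arrays, gave a two-sided p = 0.8, where the smallest p possible is 0.1. Without Columbia replicate 3 the difference was 0.07, with the opposite sign. AUR2 and SIM moved in opposite directions in 5 of the 10 pairs of arrays, among them all 4 pairs with Columbia replicate 3. In 1 pair AUR2 was tied, and in the remaining 4 pairs both genes moved the same way. Pairs of arrays share arrays, so these counts are a description.

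The other Aurora kinase genes gave the ratio the same lowest and highest array. AUR1 (AT4G32830), the closest relative of AUR2, had log2 values of 8.50, 7.83 and 7.79 on Columbia replicates 1, 2 and 3, against 8.13 and 7.99 on Landsberg erecta replicates 1 and 2. AUR3 (AT2G45490), whose product sits on chromosomes and centromeres, had 5.42, 5.12 and 4.87 on the Columbia arrays, against 5.24 and 5.19 on the Landsberg erecta arrays. Like AUR2, they were lowest on Columbia replicate 3, and unlike AUR2 they were highest on Columbia replicate 1. The linear signal was higher on Columbia replicate 1 than on Columbia replicate 3 by 1.64-fold for AUR1, 1.46-fold for AUR3 and 1.28-fold for AUR2. AUR2 thus had the smallest range of the family, and AUR1 and AUR3 spread over Columbia with an SD of 0.40 and 0.27.

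Centred on its mean over the 5 arrays, the log2 ratio to SIM on Columbia replicate 3 was -0.74 for AUR2, -0.72 for AUR1 and -0.76 for AUR3. On Columbia replicate 1 it was 0.38, 0.76 and 0.56 for the same genes. The ratios share the SIM values, so they are not separate evidence. The ecotype difference of the ratio was -0.17 for AUR1 and -0.22 for AUR3 (exact permutation tests, two-sided p = 0.8 and 0.7). Without Columbia replicate 3 it was 0.16 for AUR1 and 0.12 for AUR3, with the opposite sign. All 3 Aurora kinase genes had a lower mean in Columbia, by a median of -0.08, beside a median of 0.00 over all probe sets, and all 3 had a higher one without Columbia replicate 3 (median 0.05). None passed the adjusted test. AUR1 and AUR2 are close relatives, and whether their probe sets bind each other's transcripts was not tested.

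**Figure D2:**
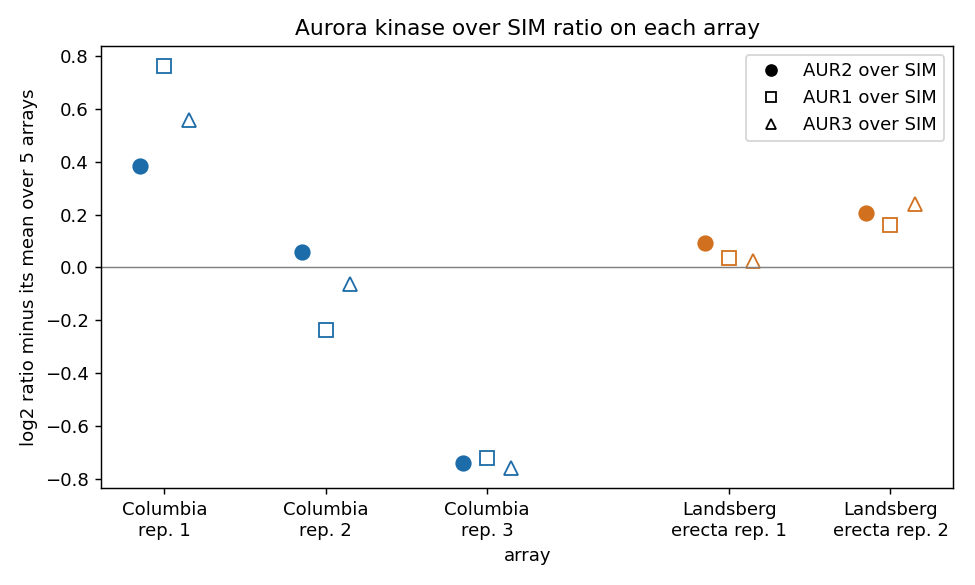
Log2 ratio of each Aurora kinase gene to SIM (vertical axis), minus its mean over the 5 arrays, for the Columbia arrays at left and the Landsberg erecta arrays at right; symbols mark the kinase gene. All 3 ratios are highest on Columbia replicate 1 and lowest on Columbia replicate 3, and the Landsberg erecta arrays lie between 0.02 and 0.24.

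Of 171 loci in 13 lists of cell cycle genes, 25 had a named probe set, and 7 lists (among them the cyclins, the cyclin-dependent kinases, the KRP inhibitors, E2F and RBR, and the MYB3R factors) had 0. None of the 25 was called in either direction, and 0 had an unadjusted p under 0.05. Of the 25 genes, 20 varied between arrays, 8 with a higher and 12 with a lower mean in Columbia, beside 53.2% higher among all varying probe sets. Without Columbia replicate 3 the 20 split into 10 higher and 10 lower. The median difference of the 25 was 0.00, as over all probe sets. Groups did not overlap for 2 of the 20, a share near the 9.47% of all varying probe sets.

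Genes of mitosis and cytokinesis had 6 measured members of 31 listed, and their median difference was -0.10. Without Columbia replicate 3 it was -0.037, with 2 of the 5 varying genes above 0 and 3 below. BUB3.1, a spindle checkpoint gene, had log2 values of 8.75, 8.66 and 8.44 on Columbia replicates 1, 2 and 3, against 8.90 and 8.66 on Landsberg erecta replicates 1 and 2. HTR12, which encodes the centromeric histone H3, had 4.91, 4.69 and 4.22 on the Columbia arrays, against 4.69 on each Landsberg erecta array. Like the Aurora kinase genes, both were lowest on Columbia replicate 3. AT4G14330, a locus without a symbol in the annotation, had 4.84, 4.73 and 4.11 on the Columbia arrays, against 4.84 and 5.22 on the Landsberg erecta arrays, and so had the same lowest array.

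KEU, which acts in vesicle fusion at the cell plate, did not follow them, with 7.95, 8.27 and 8.11 on the Columbia arrays, against 8.03 and 8.17 on the Landsberg erecta arrays. BUBR1, another spindle checkpoint gene, had 5.17, 5.21 and 5.21 on the Columbia arrays, against 5.40 and 5.23 on the Landsberg erecta arrays. Its ecotypes did not overlap, by a gap far smaller than the step between the Landsberg erecta arrays. WYR, which encodes a partner of Aurora kinases related to the animal protein INCENP, held 2.82 on all arrays.

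S phase genes differed among themselves in their extreme arrays. PRL, which encodes the MCM7 subunit of the replicative helicase, had 8.00, 7.79 and 7.78 on Columbia replicates 1, 2 and 3, against 7.82 and 7.87 on Landsberg erecta replicates 1 and 2. ICU2, the gene of the catalytic subunit of DNA polymerase alpha, had 6.35, 6.54 and 6.56 on the Columbia arrays, against 6.56 and 7.03 on the Landsberg erecta arrays. PRL was highest on Columbia replicate 1 and lowest on Columbia replicate 3, as AUR1 and AUR3 were. ICU2 was lowest on Columbia replicate 1 and highest on Landsberg erecta replicate 2. AT1G07270, the remaining measured locus of the 28 listed, held 2.24 on the Columbia arrays, against 2.24 and 2.31 on the Landsberg erecta arrays.

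The anaphase-promoting complex, which marks mitotic cyclins for breakdown and also acts in the endocycle, had 3 measured genes of 19 listed and varied little. HBT and CDC27a encode alternative forms of the same subunit. HBT lay between 7.26 and 7.38 on all arrays and CDC27a between 3.03 and 3.19. SAMBA, a regulator of the complex, lay between 5.06 and 5.20. BIN4, which belongs to a topoisomerase needed for the endocycle and is the measured one of 7 listed endocycle regulators, held 2.85 on all arrays. Across the SIM list, the complex and the listed endocycle regulators, SIM and the 3 genes of the complex were the measured genes with a symbol that varied.

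On Columbia replicate 3, 8 of the 14 varying genes of the division and S phase lists had their lowest value (57.1%), and 0 their highest. Over all varying probe sets, 20.0% were lowest and 21.2% highest on that array. Without AUR2 the count was 7 of 13 (53.8%). The lists were chosen with earlier results of these data known, so these counts are a description. The genes were the 3 Aurora kinase genes, BUB3.1, HTR12, AT4G14330, HBT and PRL, of which HBT and PRL differed little from Columbia replicate 2 (by -0.025 and -0.0074). A drop at least as large as that of AUR2, 0.35 below the mean of the other 4 arrays, was found on Columbia replicate 3 for 948 (7.88%) of the 12027 probe sets. A rise at least as large as that of SIM, 0.58 above that mean, was found for 546 (4.54%).

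Besides SIM, 8 loci of its list of 14 had a probe set, none with a symbol in the annotation, so that they are given by identifier and without a role. AT2G28870 had log2 values of 6.80, 7.04 and 7.81 on Columbia replicates 1, 2 and 3, against 7.28 and 7.04 on Landsberg erecta replicates 1 and 2. Its lowest and highest arrays were those of SIM, and its step between them was 1.01. AT5G02420 had 4.36, 4.40 and 4.86 on the Columbia arrays, against 5.05 and 4.86 on the Landsberg erecta arrays. It had the largest ecotype difference of the list, -0.42 (95% interval from -1.04 to 0.20, limma adjusted p = 1), and was highest on Landsberg erecta replicate 1. AT2G28330 went the other way from SIM on Columbia replicate 3, with 5.74, 5.74 and 5.53 on the Columbia arrays, against 5.90 and 5.82 on the Landsberg erecta arrays. The list's median difference was 0.00, with 3 of 9 loci at 1 value on all arrays.

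**Figure D3:**
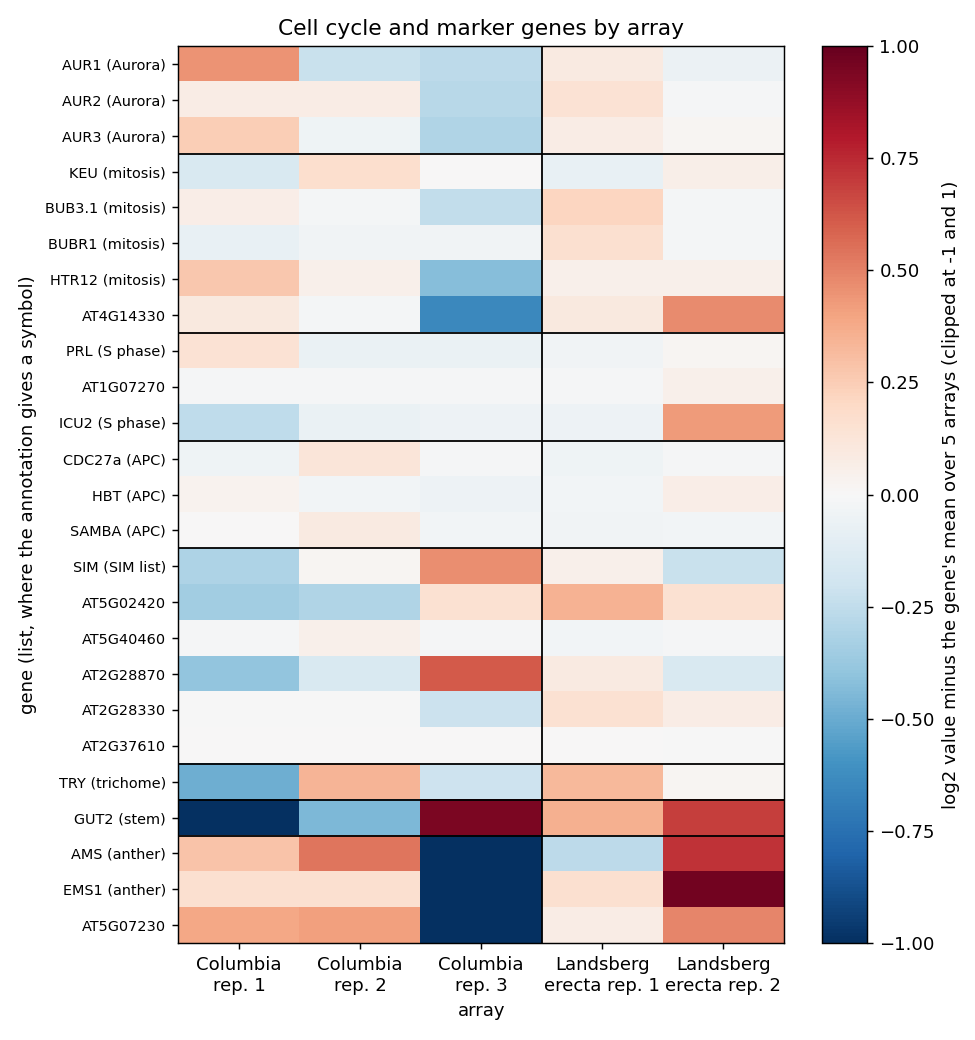
Deviation of each varying gene's log2 value from its own mean over the 5 arrays (colour, red above and blue below the mean, clipped at -1 and 1), with genes in rows and arrays in columns; blocks from the top are the Aurora kinase, mitosis, S phase, anaphase-promoting complex (APC), SIM, trichome, stem and anther lists. On Columbia replicate 3 the Aurora kinase genes, HTR12 and the anther genes are blue, and SIM, AT2G28870 and GUT2 are red.

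Markers of other tissues moved on the same arrays. GUT2, a xylan synthesis gene of secondary walls and the measured one of 8 stem markers, had 5.79, 6.88 and 8.27 on Columbia replicates 1, 2 and 3, against 7.68 and 8.01 on Landsberg erecta replicates 1 and 2. Within Columbia its order was that of SIM, while in Landsberg erecta the higher array for SIM was replicate 1 and for GUT2 replicate 2. On the linear scale its signal ranged between 55.3 and 308 over the Columbia arrays, against 205 and 258 over the Landsberg erecta arrays.

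Of 5 anther markers, 3 were measured, and all 3 were lowest on Columbia replicate 3, as AUR2 was. This list too was chosen with earlier results of these data known. AMS, a regulator of the tapetum, had 6.51, 6.76 and 4.95 on the Columbia arrays, against 5.97 and 6.96 on the Landsberg erecta arrays. EMS1, a receptor kinase gene of tapetum identity, had 4.93, 4.93 and 3.34 on the Columbia arrays, against 4.93 and 5.74 on the Landsberg erecta arrays. The third locus, AT5G07230, had 9.21, 9.23 and 7.47 on the Columbia arrays, against 8.90 and 9.32 on the Landsberg erecta arrays. The summed linear signal of the 3 ranged between 218 and 741 in Columbia, against 571 and 815 in Landsberg erecta. The part of stem and anther tissue in the AUR2 and SIM values was not tested, and in whole tissue fewer cells of a type and less RNA per cell cannot be told apart.

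TRY, an inhibitor of trichome fate and the measured one of 12 trichome genes, had 6.94, 7.77 and 7.22 on the Columbia arrays, against 7.75 and 7.45 on the Landsberg erecta arrays. It was not high on Columbia replicate 3, where SIM was highest. RCA and LHCB4.1 were the 2 measured of 6 green tissue markers. Their summed linear signal ran from 38395 to 39616 in Columbia, against 33866 to 35014 in Landsberg erecta. The ecotypes thus did not overlap, and the order of the arrays was not that of AUR2 or SIM. Neither gene passed the adjusted limma test, and 9.47% of all varying probe sets also showed no overlap.

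Signs of RNA quality were read from control probe sets, and Columbia replicate 3 had the highest Columbia value for each. For ubiquitin and 25S ribosomal RNA its value was also the highest of all arrays. Whether this bears on AUR2 or SIM on that array was not tested. The log2 ratio of the GAPDH control's 3 prime to its 5 prime probe set, which reads RNA integrity and labelling, was 0.89, 0.92 and 0.98 on Columbia replicates 1, 2 and 3, against 1.25 and 1.22 on Landsberg erecta replicates 1 and 2. The 25S ribosomal RNA control had log2 values of 7.77, 8.11 and 8.17 on the Columbia arrays, against 7.16 and 6.53 on the Landsberg erecta arrays. The ubiquitin control's log2 ratio of 3 prime to 5 prime was 0.88, 0.73 and 0.94 on the Columbia arrays, against 0.90 and 0.85 on the Landsberg erecta arrays, which overlapped (exact permutation test, two-sided p = 0.9). The GAPDH and 25S controls separated the ecotypes (exact permutation tests, two-sided p = 0.1 each, the smallest possible), so an ecotype difference in AUR2 or SIM and a difference in RNA state cannot be told apart.

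The genes whose profile was most like that of each member were found by the root mean square distance between profiles over the 5 arrays, each profile centred on its own mean, among 6425 named probe sets with a mean above 5 that varied. For AUR2 the nearest were AT4G28990 (distance 0.011), AT3G17680 (0.022), AT5G27400 (0.029), BSH (0.029), a gene of a chromatin remodelling subunit, and AT4G10480 (0.035). AUR2's own swing on this measure was 0.148. AT4G28990 had 7.07, 7.05 and 6.72 on Columbia replicates 1, 2 and 3, against 7.15 and 6.99 on Landsberg erecta replicates 1 and 2, at most 0.020 from AUR2 on any array once both were centred. Of the listed genes, BUB3.1 ranked 52nd (0.054), AT2G28330 of the SIM list 113th (0.071), AUR3 366th (0.102) and AUR1 3669th (0.217). AUR1, the closest relative, was therefore not among the genes most like AUR2 on this measure, which counts the size of swings besides their shape. The distance of AUR1 was larger than AUR2's own swing, and its distance to the AUR2 profile with its sign turned was larger still (0.360).

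For SIM, whose own swing was 0.268, the nearest were AT3G28950 (distance 0.039), AT3G47670 (0.050), AT5G18310 (0.050), AT1G52870 (0.053) and AT1G72230 (0.056). AT3G28950 had 6.19, 6.46 and 6.85 on Columbia replicates 1, 2 and 3, against 6.54 and 6.21 on Landsberg erecta replicates 1 and 2. AT2G28870 of the SIM list ranked 57th (0.114). With its sign turned, the profile of AUR3 lay at a distance of 0.131 from that of SIM, that of AUR2 at 0.195 and that of AUR1 at 0.199. Of the 3 Aurora kinase genes AUR3 therefore came closest to a mirror image of SIM. Likeness over 5 arrays is weak ground, and Columbia replicate 3 was the array farthest from the mean in the profiles of AUR2 and SIM.

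**Figure D4:**
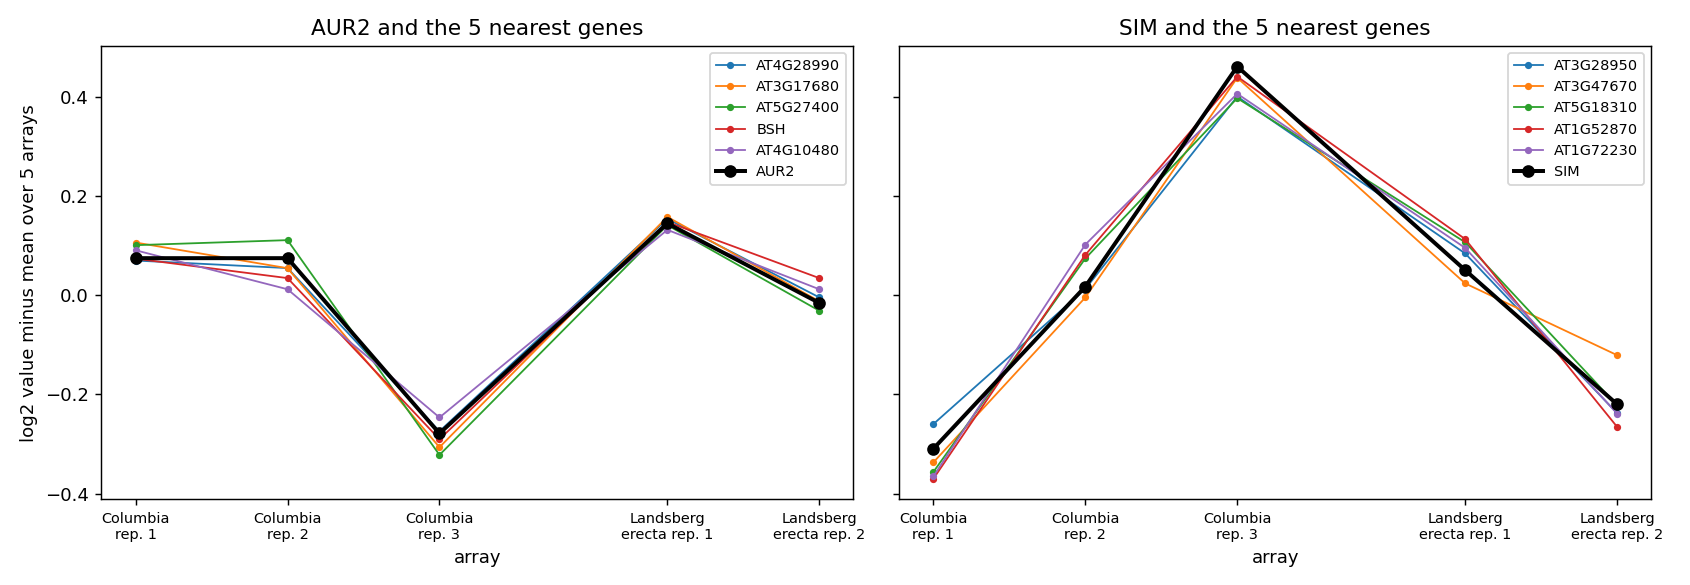
Centred log2 profiles (value minus the gene's mean over the 5 arrays, vertical axis) of AUR2 at left and SIM at right in black, with the 5 nearest genes in colour; lines only guide the eye between arrays. AUR2 and its nearest genes dip on Columbia replicate 3, and SIM and its nearest genes peak there.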

How the data were processed

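The deposited table held 1 value for each of 22810 probe sets on 5 arrays, 64 of them controls. Per the labels' protocols, total RNA was extracted with Trizol and 2 ug gave biotin-labelled cRNA. The authors deposited log2 values, as their range shows; their background correction, normalization and summary are not given in the sources used here. Probe sets were named from the platform annotation (14016 listed, 13513 with 1 gene, 503 with several, from which none was named), updated to RefSeq names of TAIR10.1 by gene identifier (13436 matched); 8794 are unnamed here. No sequence or coordinate was used. Ecotypes were compared over 22746 probe sets with limma 3.58.1 in R 4.3.3 (lmFit, eBayes, no covariate, Benjamini-Hochberg adjustment, threshold 0.05), with 0.359 prior and 3 residual degrees of freedom. The fit was tested on simulated data with normal noise and no tied values. The deposited table held 6318 probe sets with 1 value on all arrays, which that test does not cover. Ratios were differences of log2 values, tested by exact permutation. Values within 1e-09 counted as equal. Members and lists (216 loci in 18 lists, 34 measured, 11 of these without a symbol) were chosen with earlier results of these data known. Named genes were AUR2, SIM, all measured genes of a list (of lists over 6, the 2 with the largest difference per direction) and the 5 nearest profiles of each member with a mean above 5. The labels call the arrays biological replicates; their number limits the precision. Alternatives were quantile normalization, equal medians, filters at the 25% and 50% with the lowest means, trend or robust eBayes, array weights, each array left out and the replicate number as a block.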

Additional observations from a re-analysis of the deposited data

How the results depend on the processing

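No difference of AUR2 or SIM passed the adjusted test under any alternative run (lowest adjusted p 0.769 for AUR2 and 0.763 for SIM), and the directions turned with Columbia replicate 3. With single arrays left out the difference went from -0.19 to 0.010 for AUR2, from -0.061 to 0.32 for SIM and from -0.49 to 0.072 for their log2 ratio. The replicate block, which drops Columbia replicate 3 because Landsberg erecta has no counterpart to it, gave 0.010, -0.061 and 0.072 for these, and 0.10 for AUR1, 0.054 for AUR3, 0.11 for HTR12 and -0.24 for AT2G28870. The labels do not say that replicate numbers pair arrays, and deviations from the ecotype means correlated at -0.02 for number 1 and 0.07 for number 2 across probe sets. Array weights turned AUR1 (0.0020) and AT2G28870 (-0.029), and quantile normalization turned KEU (-0.0049); the cause was not tested. With single arrays left out AUR1 went from -0.26 to 0.10, AUR3 from -0.22 to 0.054, HTR12 from -0.24 to 0.11, AT2G28870 from -0.24 to 0.26, HBT from -0.081 to 0.013, KEU from -0.068 to 0.092 and PRL from -0.059 to 0.050. List medians went from -0.22 to 0.054 for the Aurora kinases, -0.17 to -0.037 for mitosis, -0.068 to 0.00 for S phase, 0.00 to 0.066 for the anaphase-promoting complex and stayed at 0.00 for the SIM list, which gave 0.010 with quantile normalization, 0.022 with equal medians and 0.041 with the dimmest 50% left out. The number of probe sets called went from 0 to 1014 with single arrays left out (1014 without Landsberg erecta replicate 1, 935 without replicate 2, where the lone array is assumed to vary like Columbia's), with AT1G07270 as the cell cycle gene called without Landsberg erecta replicate 1 (-0.068), and was 406 at an unadjusted p under 0.05. Each measured gene of the lists had 1 probe set, so averaging probe sets changed nothing.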
